A study of Mus musculus with 9 samples.

Results

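Trp53, the gene of the tumour suppressor p53, and 9 genes known as direct targets of p53 were followed in sorted mouse retinal cells after optic nerve injury. The 10 genes were listed by symbol (Trp53, Cdkn1a, Mdm2, Ccng1, Gadd45a, Gadd45b, Sesn1, Phlda3, Trp53inp1 and Eda2r) by a rule that names genes and sets no threshold on a value, though earlier results of these data were known when the list was made. All 10 were found once each among the 24772 entries of the deposited gene table, and 9 of them passed a filter on low counts. Eda2r did not.

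The Ctrl group was wild-type retina that had been left intact. The ONC group was wild-type retina 3 days after optic nerve crush, which severs the axons of retinal ganglion cells. The CKO group was retina 3 days after the same crush in mice with a conditional knockout of the zinc transporter ZnT3 in amacrine cells, the interneurons that contact ganglion cells. Each group had 3 libraries of RNA from cells sorted as ganglion cells. All CKO libraries came from crushed retinas, so genotype and crush cannot be told apart in CKO against Ctrl. The labels used here name no strain, age or Cre driver, and do not say if replicates were different animals. The p-values therefore reflect only how far these libraries differed, which may be technical.

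The protein p53 is a transcription factor that is held low by Mdm2, a ubiquitin ligase whose gene p53 itself activates, so that the pair forms a feedback loop. When DNA damage or other stress frees p53, it binds pairs of a short half-site near its targets and raises genes that stop the cell cycle, repair DNA, limit growth signalling or start apoptosis. In retinal ganglion cells and other neurons, which do not divide, p53 has been studied for its part in cell death and in axon growth after injury, and several of its targets also answer to other stress pathways.

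Total counts ran from 14166996 to 25571715 per library, the lowest in Ctrl replicate 2. The ONC columns carry the numbers 3, 5 and 6, which the labels do not tie to single samples, and are named here by those numbers. ONC columns 3 and 6 differed by 3.24 times the variance expected from counting, against 11.4 to 15 times between libraries of Ctrl or of CKO. Column 5 differed from column 3 by 46.8 times and from column 6 by 42.9 times that variance. Columns 3 and 6 thus stood together and column 5 apart, so changes after crush are also given with column 5 alone or without it where that ended a call. The 15 rod markers took 8.34% to 8.48% of counts in Ctrl, 9.30% to 10.2% in ONC and 9.09% to 9.36% in CKO. The 15 ganglion cell markers took 0.0185% to 0.0288%, 0.0142% to 0.0188% and 0.0130% to 0.0159% in the same order, and every value below is one for mixed RNA. In bulk samples like these, fewer cells of a type and less RNA per cell cannot be told apart.

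The 250 bases before the start site are shown for 4 members. These are Trp53 itself, Cdkn1a as the textbook target, Gadd45b, called higher after crush, and Ccng1, called lower over all 9 libraries. They are RefSeq sequences on GRCm38.p6 and read 5′ to 3′ along the gene. Capitals mark matches to the p53 half-site consensus on either strand and, in Gadd45b, the TATA motif TATAAA on the coding strand. The windows are chr11:69580109-69580358 (plus strand) for Trp53, chr17:29090729-29090978 (plus strand) for the upstream start of Cdkn1a, chr10:80929841-80930090 (plus strand) for Gadd45b and chr11:40755287-40755536 (minus strand) for Ccng1.
Trp53: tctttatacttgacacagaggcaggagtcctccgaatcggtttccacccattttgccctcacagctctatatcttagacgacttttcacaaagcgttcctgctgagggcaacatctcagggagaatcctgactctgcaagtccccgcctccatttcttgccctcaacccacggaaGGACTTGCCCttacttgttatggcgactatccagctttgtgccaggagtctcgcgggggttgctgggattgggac
Cdkn1a: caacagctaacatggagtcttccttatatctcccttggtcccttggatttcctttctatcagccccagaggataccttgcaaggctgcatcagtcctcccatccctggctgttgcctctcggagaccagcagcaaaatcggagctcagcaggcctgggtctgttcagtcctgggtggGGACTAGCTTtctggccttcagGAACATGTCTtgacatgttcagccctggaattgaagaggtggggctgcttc
Gadd45b: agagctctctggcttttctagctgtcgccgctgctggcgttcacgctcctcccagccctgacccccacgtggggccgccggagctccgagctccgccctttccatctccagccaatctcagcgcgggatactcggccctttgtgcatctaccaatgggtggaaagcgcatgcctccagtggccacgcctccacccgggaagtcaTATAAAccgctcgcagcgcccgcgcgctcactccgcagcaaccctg
Ccng1: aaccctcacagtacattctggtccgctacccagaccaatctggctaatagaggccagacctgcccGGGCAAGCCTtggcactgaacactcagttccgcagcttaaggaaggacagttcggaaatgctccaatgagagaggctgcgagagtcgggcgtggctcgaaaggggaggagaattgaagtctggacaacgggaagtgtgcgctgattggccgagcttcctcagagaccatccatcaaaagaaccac

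Promoter windows were found for 9 of the 10 genes, with 11 start sites in all, and none was listed for Trp53inp1. The upstream start of Cdkn1a held the p53 half-site match GAACATGTCT 51 bases before the start and a further one, GGACTAGCTT, 73 bases before it. Trp53 held GGACTTGCCC at 75 bases, Mdm2 GAACTTGCCT at 186 bases, Ccng1 GGGCAAGCCT at 185 bases and Gadd45a GGGCTAGCCC at 40 bases before the start. The downstream start of Sesn1 held AAGCTTGTTT at 173 bases. Gadd45b, Phlda3 and Eda2r held no match in this window, nor did the downstream start of Cdkn1a or the upstream start of Sesn1. Single half-sites were searched, and pairs of them were not. Of all 32851 promoter windows of the same length, 7.13% held a p53 half-site match. The kappaB consensus (7.25% of all windows), the AP-1 motif TGANTCA (6.75%) and the cAMP response element TGACGTCA (1.55%), searched on both strands, had no match in any of the 11 windows. The TATA motif TATAAA was in 12.4% of all windows on either strand, and it lay 46 bases before the start in Gadd45b, 58 in Eda2r and, on the opposite strand, 248 in Trp53. CCAAT, present in 33.8% of all windows, was in both start sites of Sesn1 and in the windows of Trp53, Mdm2, Ccng1, Gadd45a, Gadd45b and Eda2r. Matches of different motifs did not overlap in these windows. A match is a stretch of letters and not a bound site.

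Compared per gene length, Gadd45a was the most abundant of the 10 genes in intact retina, at 62.3 ± 3.35 FPKM (SD, n = 3), where FPKM is the authors' level scaled to gene length and depth. Sesn1 at 32.8 ± 1.2, Ccng1 at 31.3 ± 2.55 and Mdm2 at 28.4 ± 3.58 FPKM came next, and each overlapped its neighbour in this order. Cdkn1a at 17.1 ± 4.8 and Trp53inp1 at 16.0 ± 1.56 FPKM overlapped each other and lay below Mdm2 in every Ctrl library. Trp53 itself was low, at 4.96 ± 0.974 FPKM, and overlapped Gadd45b at 3.70 ± 1.42 FPKM. Phlda3 was at 1.41 ± 0.606 and Eda2r at 0.0270 ± 0.0460 FPKM. In CKO Gadd45a was again first, at 57.0 ± 7.22 FPKM, and the order differed from Ctrl in 2 places. Mdm2 (30.8 ± 2.83 FPKM) stood above Ccng1 (29.7 ± 2.44 FPKM), though they overlapped as in Ctrl. Gadd45b stood above Trp53: it reached 15 ± 4.51 FPKM, overlapping Trp53inp1 at 15.4 ± 1.59 and higher than Trp53 (6.66 ± 0.687 FPKM) in every CKO library. FPKM values of ONC could not be tied to single samples and were not used.

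**Figure D1:**
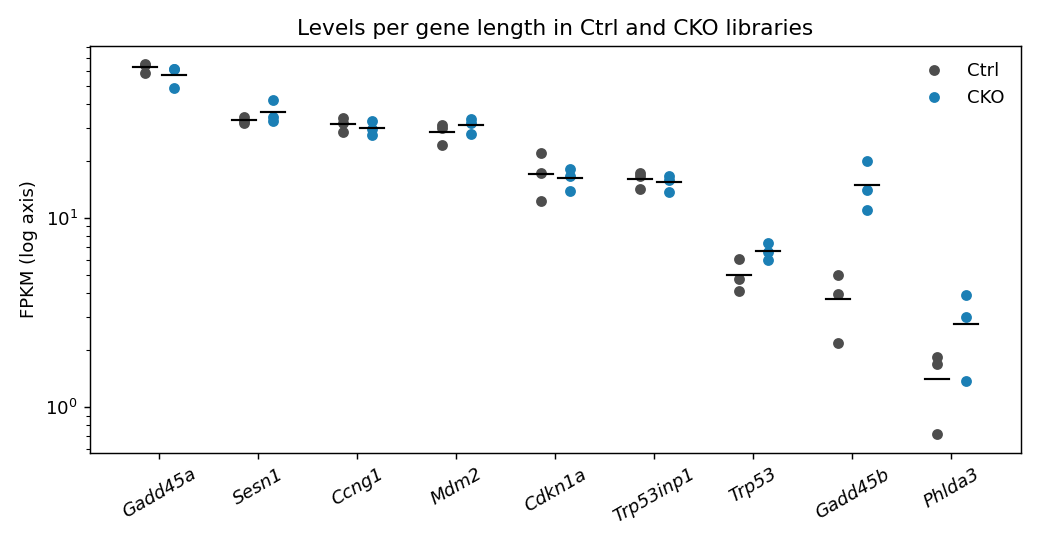
Level per gene length (FPKM, log axis) of the 9 members above the filter in the 3 Ctrl and 3 CKO libraries; points are libraries and bars are group means. Gadd45b is the gene whose CKO points (mean 15 FPKM) all lie above its Ctrl points (mean 3.70 FPKM).

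After optic nerve crush in wild-type mice, 1 target was higher and a pair of others lower over all 9 libraries. Both falls depended on which ONC libraries were used. Ccng1 was called in 11 and Trp53inp1 in 7 of 18 other analyses, against 17 for Gadd45b. Trp53 itself, its inhibitor gene Mdm2 and the arrest gene Cdkn1a were not called. Gadd45b was 3.06-fold higher in ONC than in Ctrl (95% interval 1.84 to 5.10), Ccng1 was at 0.598 of its Ctrl level (0.441 to 0.812) and Trp53inp1 at 0.578 (0.397 to 0.841). These 3 of 9 tested members were called by edgeR at an adjusted p under 0.05 over all genes, 1 higher and 2 lower, where 25.8% of all 15841 tested genes were called, 13.0% higher and 12.8% lower. The share of members called was thus near that of all genes. The median log2 fold change was 0.06 for the 9 members and -0.04 for all tested genes. The groups did not overlap for 5 members (the 3 called, Gadd45a and Phlda3), against 39.5% of all tested genes.

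**Figure D2:**
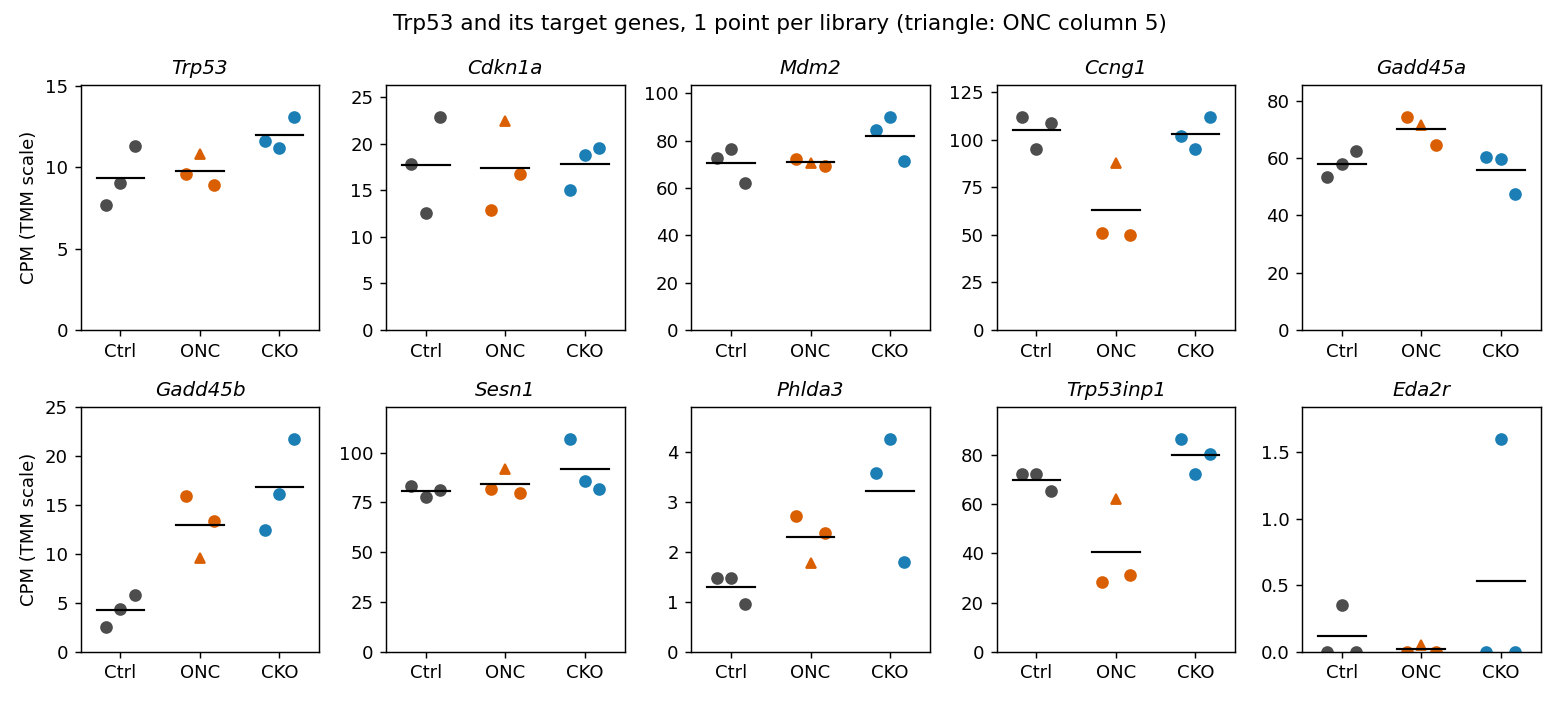
CPM on the TMM scale (counts scaled to library size) of the 10 genes in each library; points are libraries, bars are group means, and the triangle is ONC column 5. Gadd45b is above all Ctrl libraries in every ONC and CKO library, while Ccng1 and Trp53inp1 are lowest in 2 ONC libraries (columns 3 and 6).

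At the head of the pathway, Trp53 (ENSMUSG00000059552, GRCm38 chromosome 11, 69580359 to 69591873, plus strand) was at 7.66, 9.03 and 11.3 CPM in Ctrl replicates 1, 2 and 3. It was at 9.60, 10.8 and 8.92 CPM in columns 3, 5 and 6 of ONC, and at 11.6, 11.2 and 13.1 CPM in CKO replicates 1, 2 and 3. ONC lay within the Ctrl range, and the CKO libraries lay above every ONC library but overlapped Ctrl. Trp53 had a log2 fold change of 0.06 ± 0.22 (SE) in ONC against Ctrl (adjusted p 0.861 by edgeR), 0.29 ± 0.22 for CKO against ONC (0.425), and CKO against Ctrl gave 0.35 ± 0.22 (0.374). The 95% intervals of these fold changes were 0.745 to 1.46, 0.874 to 1.71 and 0.912 to 1.79, so a 2-fold change of the Trp53 transcript lay outside each of them. Control of p53 is known to act mainly on the protein, which these data do not measure.

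Mdm2, the ubiquitin ligase that marks p53 for degradation, was at 72.8, 76.4 and 62.1 CPM in Ctrl replicates 1, 2 and 3 and at 72.2, 70.7 and 69.3 CPM in columns 3, 5 and 6 of ONC. CKO replicates 1, 2 and 3 were at 84.4, 90.0 and 71.5 CPM. The groups overlapped in every comparison. The log2 fold change of Mdm2 was 0.01 ± 0.13 in ONC against Ctrl (adjusted p 0.978 by edgeR) and 0.21 ± 0.13 in CKO against ONC (0.323). The fold change of Mdm2 after crush had a 95% interval of 0.820 to 1.23. Mdm4, the paralog that binds and inhibits p53 without being its main ligase, was at 99.7 ± 2.85 CPM in Ctrl, 97.1 ± 19.0 in ONC and 79.6 ± 3.89 in CKO and was not called in any comparison (adjusted p 0.877, 0.233 and 0.210 by edgeR in the order ONC against Ctrl, CKO against ONC, CKO against Ctrl).

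Cdkn1a encodes p21, the inhibitor of cyclin-dependent kinases through which p53 arrests the cell cycle. It was at 17.8, 12.6 and 22.9 CPM in Ctrl replicates 1, 2 and 3, at 12.9, 22.5 and 16.8 CPM in columns 3, 5 and 6 of ONC, and at 15, 18.8 and 19.6 CPM in CKO replicates 1, 2 and 3. The 3 groups overlapped throughout and the group means lay between 17.4 and 17.8 CPM. The log2 fold change was -0.03 ± 0.26 in ONC against Ctrl (adjusted p 0.939 by edgeR), 0.03 ± 0.26 for CKO against ONC (0.952), and CKO against Ctrl gave -0.00 ± 0.26 (0.997). Its sign changed between analyses in all 3 comparisons. The 95% interval of the fold change after crush, 0.658 to 1.45, was wider than that of Mdm2. Part of Cdkn1a (7.68% of its exon length) is shared with a transcript on the opposite strand that has no gene symbol, and the sources used here do not say whether counting used the strand, so its reads may be among those of Cdkn1a.

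Among other inhibitors of the same kinases, Cdkn1c (p57) rose from 10.7 ± 0.477 CPM in Ctrl to 25.6 ± 2.83 in ONC (log2 fold change 1.26, adjusted p 0.00173 by edgeR), a call that held in all 18 other analyses. It was lower in CKO, at 13.9 ± 1.59 CPM (log2 fold change -0.88 against ONC, adjusted p 0.0492 by edgeR), a call that held in 7 of 18 other analyses and not with column 5 alone (-0.74, 0.375). Cdkn1b (p27) rose from 32.2 ± 2.64 to 49.6 ± 6.73 CPM after crush (adjusted p 0.0140 by edgeR) but was not called with column 5 alone (0.248) and held in 16 of 18. Cdkn1a was not called while these paralogs were; the difference between the genes was not tested.

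Gadd45b and Gadd45a encode small stress sensors that bind kinases and cell cycle proteins; in mouse and human cells Gadd45a is the classical p53 target and Gadd45b is also induced by NF-kappaB and TGF-beta signalling. Gadd45b (ENSMUSG00000015312, GRCm38 chromosome 10, 80930073 to 80932204, plus strand) had 54, 63 and 146 counts in Ctrl replicates 1, 2 and 3, or 2.49, 4.41 and 5.77 CPM. It was at 15.9, 9.62 and 13.4 CPM in columns 3, 5 and 6 of ONC and at 12.5, 16.1 and 21.8 CPM in CKO replicates 1, 2 and 3. Every library from a crushed retina was above every intact one, with column 5 the lowest of the 6. The log2 fold change was 1.61 ± 0.34 in ONC against Ctrl (adjusted p 0.00737 by edgeR) and 1.99 ± 0.34 in CKO against Ctrl (0.00610), comparisons that share the Ctrl libraries. CKO and ONC overlapped (log2 fold change 0.37 ± 0.32, adjusted p 0.482 by edgeR, 95% interval of the fold 0.796 to 2.11).

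The rise of Gadd45b was called in 17 of 18 other analyses of ONC against Ctrl and in 19 of 19 of CKO against Ctrl. With column 5 as the only ONC library its log2 fold change was 1.21 (adjusted p 0.108 by edgeR), and without column 5 it was 1.84 (0.000328). Markers of other retinal cells moved with crush as well, with 10 of 15 rod markers called higher and 3 lower in ONC against Ctrl. Of all tested genes, 13.0% were called higher and 12.8% lower in that comparison. In CKO against Ctrl the shares of all tested genes were 4.32% and 4.58%. Of 11 Müller glia markers, 8 were called higher in ONC and 6 in CKO against Ctrl, none was at 0, and their sum was 0.0782% to 0.0824% of counts in Ctrl, 0.106% to 0.172% in ONC and 0.123% to 0.136% in CKO. Of 12 amacrine markers, 10 were tested and 7 called lower in both groups, with sums of 0.0493% to 0.0575% in Ctrl, 0.0209% to 0.0255% in ONC and 0.0150% to 0.0167% in CKO, and Slc18a3 was at 0 in ONC. The part of these cells in the change of Gadd45b was not tested. The 12 microglia and macrophage markers summed to 0.00162% to 0.00264% of counts over the 9 libraries, with Tmem119, P2ry12, Aif1 and Tyrobp at 0 in ONC and C1qa at 0 in Ctrl.

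Gadd45a was at 53.2, 58.0 and 62.3 CPM in Ctrl replicates 1, 2 and 3, at 74.3, 71.6 and 64.4 CPM in columns 3, 5 and 6 of ONC, and at 60.4, 59.7 and 47.3 CPM in CKO replicates 1, 2 and 3. The ONC libraries lay above every Ctrl and CKO library, by a small margin. The change was not called in ONC against Ctrl (log2 fold change 0.28 ± 0.14, adjusted p 0.162 by edgeR) or in CKO against ONC (-0.33 ± 0.14, 0.158). Without ONC column 5, CKO against ONC gave -0.36 with an adjusted p of 0.0475 by edgeR. An opposite-strand transcript, E230016M11Rik, covers 19.1% of the exon length of Gadd45a, and its reads may be among those counted for Gadd45a. The third paralog, Gadd45g, was at 18.2 ± 5.20 CPM in Ctrl, 21.8 ± 6.66 in ONC and 24.9 ± 2.78 in CKO and was not called (adjusted p 0.481 by edgeR in ONC against Ctrl and 0.319 in CKO against Ctrl). Of the 3 Gadd45 genes, only Gadd45b was called by edgeR over all 9 libraries; whether it differed from its paralogs was not tested.

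Ccng1 encodes cyclin G1, a p53 target that recruits the phosphatase PP2A to Mdm2. It lies on GRCm38 chromosome 11, 40748552 to 40755311, minus strand (ENSMUSG00000020326). Ccng1 was at 112, 95 and 109 CPM in Ctrl replicates 1, 2 and 3 and at 51.1, 87.9 and 49.9 CPM in columns 3, 5 and 6 of ONC. It was at 102, 95 and 112 CPM in CKO replicates 1, 2 and 3, which is the Ctrl range. Columns 3 and 6 had about the same low level, and column 5 lay just below the lowest Ctrl library. Ccng1 had a log2 fold change of -0.74 ± 0.20 in ONC against Ctrl (adjusted p 0.0209 by edgeR) and -0.03 ± 0.20 in CKO against Ctrl (0.946). In CKO against ONC it was 0.71 ± 0.20 and was not called (adjusted p 0.0723 by edgeR), although no CKO library fell as low as any ONC library.

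Trp53inp1 encodes a stress protein that promotes p53 activity and takes part in autophagy. It lies on GRCm38 chromosome 4, 11156431 to 11174379, plus strand (ENSMUSG00000028211). Trp53inp1 was at 72.3, 72.5 and 65.3 CPM in Ctrl replicates 1, 2 and 3, at 28.4, 62.0 and 31.2 CPM in columns 3, 5 and 6 of ONC, and at 86.7, 72.5 and 80.4 CPM in CKO replicates 1, 2 and 3. As for Ccng1, columns 3 and 6 were low together and column 5 was near the Ctrl libraries. Trp53inp1 had a log2 fold change of -0.79 ± 0.25 in ONC against Ctrl (adjusted p 0.0363 by edgeR), 0.98 ± 0.25 for CKO against ONC (0.0627), and CKO against Ctrl gave 0.19 ± 0.25 (0.705).

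The size of the falls of Ccng1 and Trp53inp1 depended on which ONC libraries were used. With column 5 alone, Ccng1 had a log2 fold change of -0.23 against Ctrl (adjusted p 0.385 by edgeR) and Trp53inp1 of -0.15 (0.618). Without column 5, the values were -1.0 (8.16e-06) for Ccng1 and -1.18 (4.13e-06) for Trp53inp1. That fit kept columns 3 and 6, which differed less than libraries of Ctrl or of CKO did. It called 7644 genes, against 4080 over all 9 libraries. With columns 3 and 6 summed as 1 library the log2 fold changes of Ccng1 and Trp53inp1 were -0.56 (0.0968) and -0.57 (0.148). Over the 18 other analyses of ONC against Ctrl, Ccng1 was called in 11 and Trp53inp1 in 7. Leaving out Ctrl replicate 1 or 3 or ONC column 3 or 6 ended the call of Ccng1 (adjusted p 0.0724 to 0.101 by edgeR). Leaving out any 1 library other than ONC column 5 ended that of Trp53inp1 (0.0612 to 0.152). In CKO against ONC each was called in 4 of 18 other analyses, among them DESeq2 (adjusted p 0.0168 and 0.00577) and the fit without column 5. The Müller glia marker sum was also higher in columns 3 and 6 (0.172% and 0.169% of counts) than in column 5 (0.106%), and was 0.123% to 0.136% in CKO. The sum of the 9 bipolar cell markers was lower in columns 3 and 6 (0.0833% and 0.0829%) than in column 5 (0.113%). It was 0.107% to 0.124% in Ctrl and 0.101% to 0.118% in CKO. The part of these cells in the falls of Ccng1 and Trp53inp1 was not tested.

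**Figure D3:**
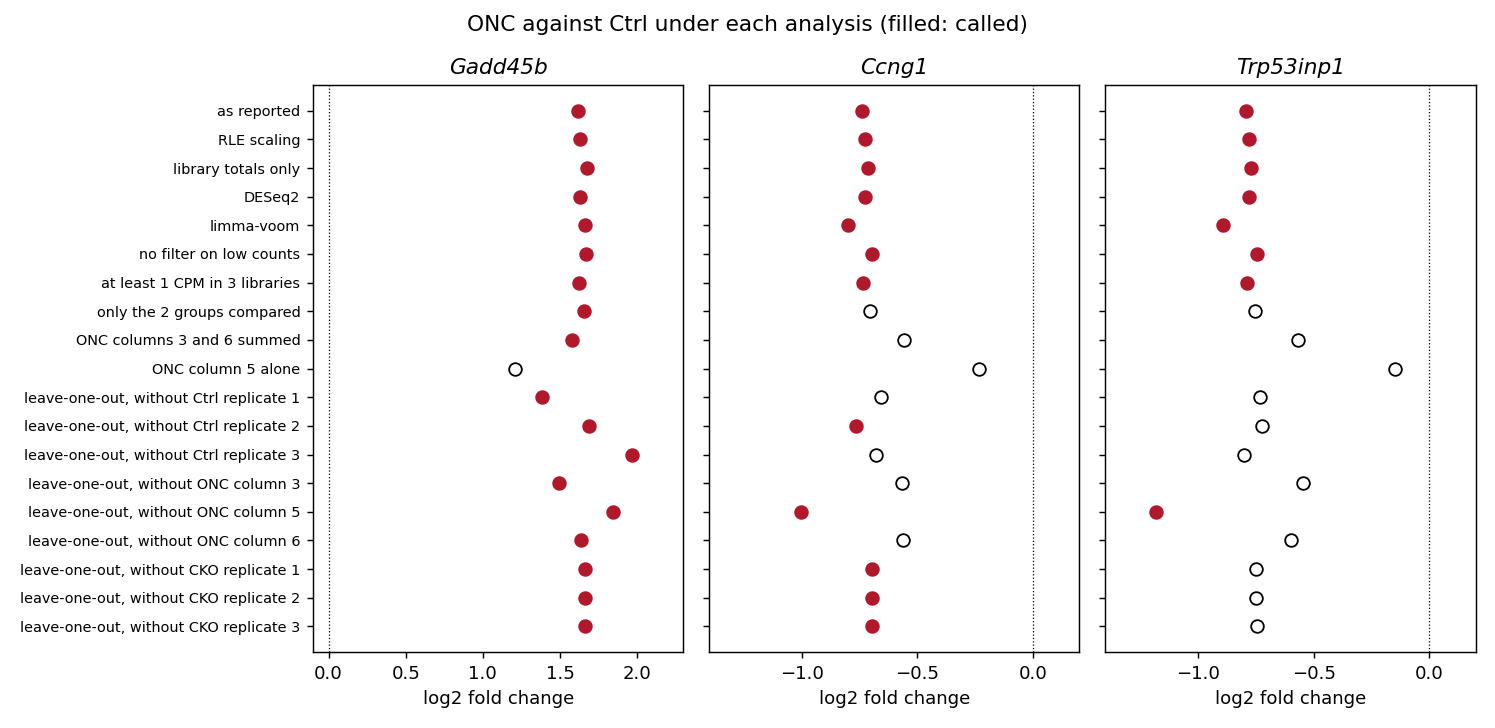
Log2 fold change of Gadd45b, Ccng1 and Trp53inp1 in ONC against Ctrl as reported and under each of 18 other analyses; filled points have an adjusted p under 0.05. The point nearest 0 for each gene is ONC column 5 alone (1.21, -0.23 and -0.15).

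The paralogs of these genes followed no single direction. Ccng2, the paralog of Ccng1, fell from 42.2 ± 5.51 CPM in Ctrl to 23.3 ± 7.72 in ONC (log2 fold change -0.86, adjusted p 0.0179 by edgeR), but not with column 5 alone (0.365), and held in 12 of 18 other analyses. Trp53inp2, the paralog of Trp53inp1 with a role in autophagy, rose from 63.5 ± 4.30 to 103 ± 12.5 CPM in ONC (log2 fold change 0.69, adjusted p 0.00550 by edgeR, 17 of 18 other analyses; 0.52 and 0.0570 with column 5 alone). It was also higher in CKO than in Ctrl, at 93.7 ± 7.91 CPM (log2 fold change 0.56, adjusted p 0.0253 by edgeR, 12 of 19 other analyses).

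Sesn1, a sestrin that restrains the growth kinase mTORC1 and limits oxidative stress, was at 83.3, 77.6 and 81.1 CPM in Ctrl replicates 1, 2 and 3. It was at 81.8, 91.9 and 79.6 CPM in columns 3, 5 and 6 of ONC and at 107, 85.7 and 81.9 CPM in CKO replicates 1, 2 and 3. CKO replicate 1 was the highest, and the groups overlapped in every comparison. Sesn1 was not called in any comparison (adjusted p 0.750, 0.616 and 0.463 by edgeR in ONC against Ctrl, CKO against ONC and CKO against Ctrl), and the 95% interval of its fold change after crush was 0.854 to 1.28. Its paralogs Sesn2 (4.76 ± 0.725 CPM in Ctrl, 3.49 ± 0.561 in ONC) and Sesn3 (68.0 ± 2.87 and 52.5 ± 2.18 CPM) were not called after crush (adjusted p 0.340 and 0.0759 by edgeR).

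Phlda3 encodes a small protein that competes with the kinase Akt for membrane lipids. It had 32, 21 and 24 counts in Ctrl replicates 1, 2 and 3, 62, 36 and 57 in columns 3, 5 and 6 of ONC, and 78, 96 and 38 in CKO replicates 1, 2 and 3. On the CPM scale these were 1.48, 1.47 and 0.949 in Ctrl, 2.72, 1.78 and 2.38 in ONC and 3.58, 4.26 and 1.79 in CKO. Every library from a crushed retina was above every intact one, though column 5 and CKO replicate 3 were close to Ctrl. The log2 fold change was 0.82 ± 0.46 in ONC against Ctrl (adjusted p 0.205 by edgeR) and 1.31 ± 0.46 in CKO against Ctrl (0.107), and edgeR called neither. DESeq2 called CKO against Ctrl (adjusted p 0.0458), as it did 14.5% of all genes it tested. In FPKM, CKO replicate 3 (1.37) fell among the Ctrl libraries (1.68, 1.84 and 0.720), so CKO and Ctrl overlapped on that scale. At so few counts a doubling lay inside the 95% interval of the fold after crush, 0.879 to 3.56, as did no change.

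Eda2r encodes a receptor of the tumour necrosis factor family that binds the ligand EDA-A2. It had 0 counts in 6 of the 9 libraries, 5 counts in Ctrl replicate 2, 1 count in ONC column 5 and 36 counts (1.6 CPM) in CKO replicate 2. A count of 0 allowed up to 0.117 to 0.141 CPM in those 6 libraries, for counting error only. Eda2r was below the filter on low counts and was not compared between groups, and 1 CKO library held nearly all its counts. The ligand gene Eda was at 0.249 ± 0.115 CPM in Ctrl and 0.105 ± 0.111 in CKO and was not tested either.

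Loss of ZnT3 from amacrine cells, compared among crushed retinas, left no member called. Of 9 tested members 0 were called by edgeR in CKO against ONC, where 0.865% of all tested genes were called (0.587% higher and 0.278% lower). At an unadjusted p under 0.05 there were 3 (Ccng1, Trp53inp1 and Gadd45a), against 27.2% of all tested genes. DESeq2 called 2 (Ccng1 and Trp53inp1, both higher in CKO), against 14.3% of all genes it tested. The groups did not overlap for 4 members (Ccng1, Trp53inp1 and Trp53 higher and Gadd45a lower in CKO), against 26.2% of all tested genes. The median log2 fold change was 0.29 for the members and -0.02 for all tested genes. With ONC column 5 alone, the log2 fold change of CKO against ONC was 0.22 for Ccng1 and 0.36 for Trp53inp1, below the 0.71 and 0.98 over all ONC libraries. Scaling by library totals lowered the median of all genes in this comparison by 0.112 on the log2 scale. No member was called at that scaling, though Trp53inp1 lay at the threshold (log2 fold change 0.893, adjusted p 0.05 by edgeR).

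In CKO against Ctrl, 1 of 9 tested members, Gadd45b, was called, higher, where 8.89% of all tested genes were called with 4.32% called higher and 4.58% lower. Gadd45b was 3.96-fold higher (95% interval 2.37 to 6.63). The groups did not overlap for Gadd45b and Phlda3, both higher in CKO, against 35.7% of all tested genes. Ccng1 (fold 0.978, 95% interval 0.723 to 1.32), Trp53inp1 (1.14, 0.787 to 1.65) and Cdkn1a (0.999, 0.673 to 1.48) were not called, and a halving or doubling lay outside each of these intervals.

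**Figure D4:**
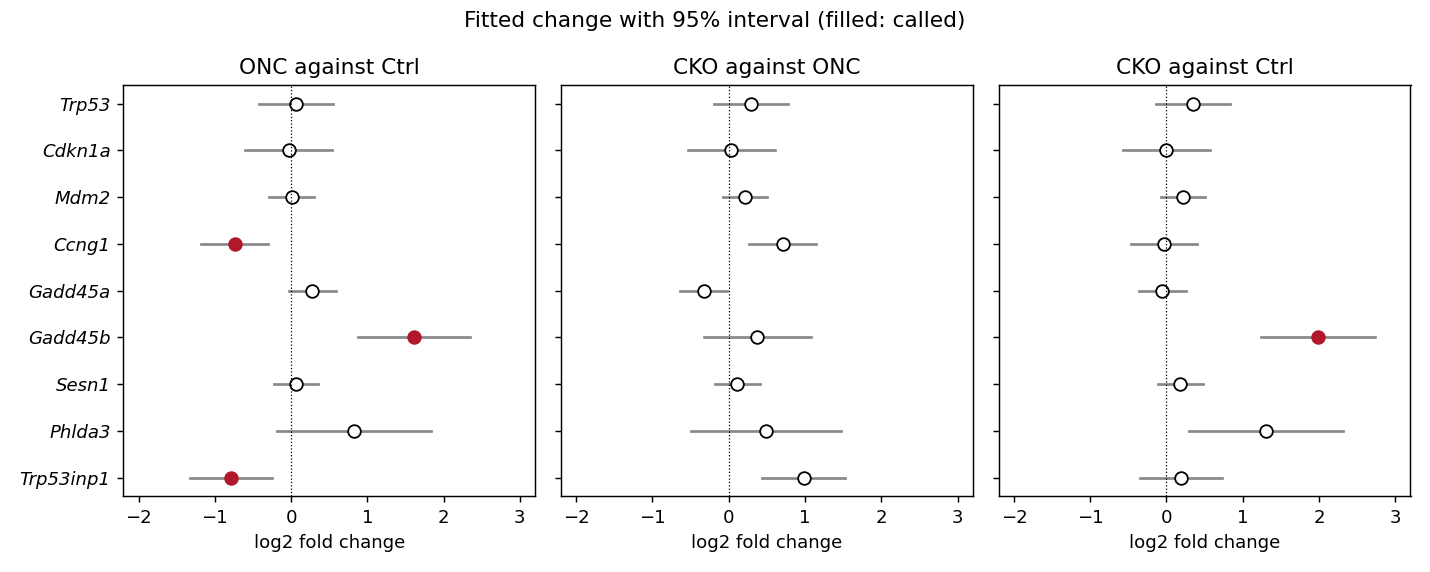
Log2 fold change of the 9 tested members in the 3 comparisons with 95% intervals; filled points have an edgeR adjusted p under 0.05. Gadd45b is filled in both comparisons with Ctrl, Ccng1 and Trp53inp1 in ONC against Ctrl, and no member in CKO against ONC.

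Other p53 targets were taken from lists of apoptosis, arrest, repair, metabolism and further targets, 76 genes in all, of which 61 were tested. After crush in wild-type mice 4 of the 61 were called higher and 3 lower (median log2 fold change 0.14), in CKO against ONC 0 and 0 (median -0.08), and in CKO against Ctrl 3 and 1 (median -0.05). The share was below the background of 25.8% in ONC against Ctrl and near that of 8.89% in CKO against Ctrl. Some of the 61, such as Fas and Pidd1, had few counts and could hardly be called. The SE of their log2 fold changes after crush was 1.86 and 1.36. None of the 11 tested apoptosis targets was called in any comparison. Among them Bax, the pore-forming death effector, was at 30.8 ± 2.32 CPM in Ctrl, 32.2 ± 7.15 in ONC and 20.2 ± 0.940 in CKO (adjusted p 0.0652 by edgeR in CKO against ONC). Apaf1, which builds the apoptosome, went from 8.0 ± 1.63 CPM in Ctrl to 12.9 ± 0.691 in ONC (adjusted p 0.0644 by edgeR). Aen went from 7.91 ± 1.89 to 14.7 ± 0.183 CPM (0.0504), with every ONC library above every Ctrl library. Bid went the other way, from 2.46 ± 1.41 to 0.627 ± 0.275 CPM (0.185). The death genes Bbc3 (Puma), at most 0.226 CPM as a group mean, and Pmaip1 (Noxa), at most 0.0306 CPM, were below the filter.

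Among arrest targets, Btg2, an antiproliferative gene that also responds to neuronal activity, rose from 120 ± 0.594 CPM in Ctrl to 195 ± 19.7 in ONC (log2 fold change 0.70, adjusted p 0.00472 by edgeR, called in all 18 other analyses). Btg2 was at 177 ± 23.3 CPM in CKO (log2 fold change 0.56 against Ctrl, adjusted p 0.0234 by edgeR, 13 of 19). Zfp365 was higher in CKO, at 221 ± 11.9 CPM, than in Ctrl, at 142 ± 2.26 (adjusted p 0.0189 by edgeR, 14 of 19). Among 11 repair targets, Rrm2b, the p53-induced subunit of ribonucleotide reductase, was the gene called: it fell from 198 ± 33.5 CPM in Ctrl to 73.8 ± 22.4 in ONC (log2 fold change -1.43, adjusted p 0.00171 by edgeR) and was at 80.3 ± 6.29 in CKO (-1.30 against Ctrl, 0.00416). Rrm2b was called in all 18 and all 19 other analyses of these comparisons. Its direction was thus opposite to that of Gadd45b and Btg2.

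Among metabolic, redox and autophagy targets, 2 of 14 were called higher and 2 lower after crush, against 13.0% and 12.8% of all tested genes. The share called was thus near that of all genes. Dram2, a lysosomal membrane gene, fell from 99.7 ± 10 to 49.9 ± 23.5 CPM (adjusted p 0.0154 by edgeR) and was at 107 ± 7.30 CPM in CKO. Prkab1, a subunit of the energy-sensing kinase AMPK, rose from 133 ± 6.25 to 171 ± 6.17 CPM (adjusted p 0.0297 by edgeR). Fdxr, ferredoxin reductase, rose from 4.48 ± 2.08 to 9.98 ± 3.03 CPM (adjusted p 0.0406 by edgeR). Dram2, Prkab1 and Fdxr were called in 13, 13 and 10 of 18 other analyses. Dram2 was low in columns 3 and 6 (35.4 and 37.3 CPM) and at 77.1 CPM in column 5, and with column 5 alone its log2 fold change was -0.35 (adjusted p 0.202 by edgeR), against -1.402 without it. Fdxr had 0.58 with column 5 alone (0.543) and 1.42 without it, and Prkab1 had 0.39 (0.0622) and 0.42. Sco2, a cytochrome oxidase assembly gene, rose in CKO against Ctrl, from 3.78 ± 2.03 to 10.2 ± 3.26 CPM (adjusted p 0.0482 by edgeR, 10 of 19). In ONC Sco2 was at 8.23 ± 1.58 CPM and was not called against Ctrl (adjusted p 0.0606 by edgeR). CKO against ONC was not called either (0.637). Among further targets Zfp385a, a zinc finger gene whose product binds p53, rose from 18.5 ± 4.05 to 64.3 ± 25.9 CPM after crush (log2 fold change 1.79, adjusted p 0.00293 by edgeR, 17 of 18), with 0.91 for column 5 alone (0.0511) and 2.14 without it.

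Of 16 tested regulators of p53, 3 were called higher and 2 lower after crush (median log2 fold change -0.02), against 13.0% and 12.8% of all tested genes, and 0 in the other comparisons. Sirt1, a deacetylase of p53, fell from 90.4 ± 7.44 to 41.3 ± 10.2 CPM (log2 fold change -1.13, adjusted p 0.00196 by edgeR, called in all 18 other analyses) and was at 69.8 ± 4.09 CPM in CKO. Kat5, an acetyltransferase of p53, rose from 17.6 ± 2.46 to 38.2 ± 15.4 CPM (adjusted p 0.0150 by edgeR), but not with column 5 alone (0.624). Hipk2, a kinase of p53, rose from 11.3 ± 2.39 to 21.5 ± 6.83 CPM (adjusted p 0.0288 by edgeR), also not with column 5 alone (0.617). Of 19 tested cell cycle genes, 0 were called by edgeR after crush, where 25.8% of all tested genes were. In CKO against Ctrl 1 was called, Ccne1, against 8.89% of all tested genes. Ccne1 was lower in CKO (2.11 ± 1.08 CPM in Ctrl and 0.0314 ± 0.0545 in CKO, adjusted p 0.0327 by edgeR, 12 of 19). Genes with few counts can hardly be called, and whether low counts limited the calls of this list was not tested. The p53 family genes Trp63 and Trp73 were below the filter, and Cdkn2a, whose product Arf frees p53 from Mdm2, was listed at 0 in all 9 libraries.

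**Figure D5:**
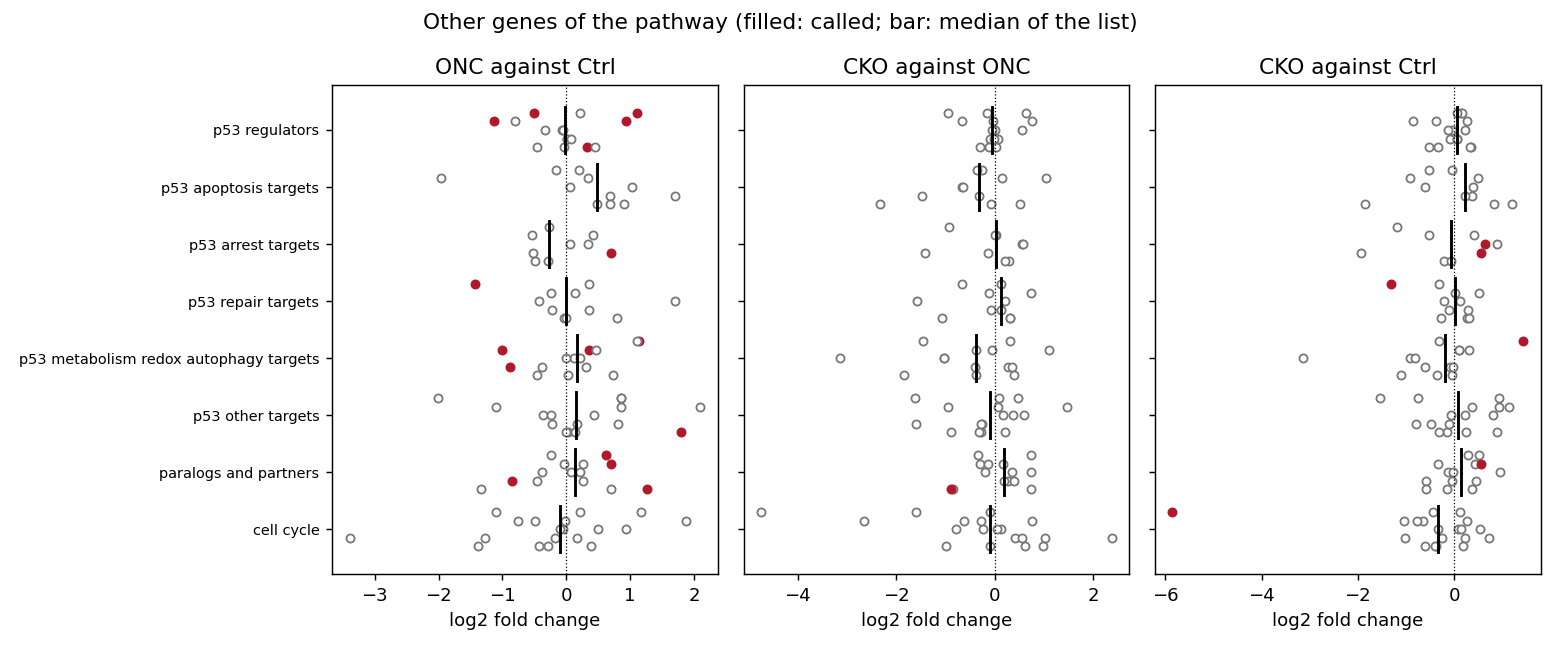
Log2 fold change of the tested genes of each list (members left out) in the 3 comparisons; filled points have an edgeR adjusted p under 0.05 and bars are list medians. Called genes lie on both sides of 0 in ONC against Ctrl and number 1, Cdkn1c, in CKO against ONC.

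The genes whose pattern was most like that of Trp53 over the 9 libraries were Chchd2, Odr4 and Ndufaf3. Their log2 CPM, centred on its mean, differed from that of Trp53 by a root mean square of 0.079 to 0.080, against a median of 0.471 over all annotated tested genes. Chchd2 had means of 622, 695 and 827 CPM in Ctrl, ONC and CKO. For Cdkn1a, Cfap54 and Hist1h4i were among the nearest, at 0.153 and 0.155 against a median of 0.509. Trp53 and Cdkn1a themselves deviated from their own means by 0.223 and 0.293 on the same scale. The medians above are differences from each member and do not measure how much other genes varied. Whether the closeness reflects more than a similar small variation was not tested.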

How the data were processed

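Cells were sorted as retinal ganglion cells and their cDNA was amplified with a single-cell kit before library preparation, which the labels' protocols call stranded; whether counting used the strand is not given in the sources used here. Trimmomatic 0.36 and the builds GRCm38 and mm10 were used, per the submitters' processing notes; the aligner, counter and annotation are not given in the sources used here. The deposited table held expected counts per gene, not normalized, which were 68.3% to 73.1% whole numbers. The FPKM values in it were scaled to gene length and depth by the authors, per the file headers. Of its 18 value columns, 3 (FPKM of ONC) could not be matched to samples and were not used. Of 21970 Ensembl entries, 21956 matched GENCODE M21, which gave symbols and positions; the other 2802 entries were assembled loci.

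Rounded counts were fitted with edgeR 4.0.16 (R 4.3.3): filterByExpr by group (minimum count 10), TMM scaling and 1 quasi-likelihood fit to all 9 libraries, with p-values adjusted by Benjamini-Hochberg over 15841 genes. A gene was called at an adjusted p under 0.05. The SE is the log2 fold change over the root of the F statistic. CPM are on the TMM scale; marker sums use library totals. Floors for a count of 0 cover counting error only; intervals of fold changes come from the spread between libraries. Other analyses used DESeq2 1.42.0, limma-voom 3.58.1, other scalings, filters, samples in the fit, and left-out libraries. With column 5 alone, ONC is 1 library assumed to vary like the other groups. The edgeR script was tested on simulated data. Members and lists were chosen with earlier results of these data known. Beside the members, the called genes of each list with the lowest p, at most 3, were named, with paralogs of members. Bax, Apaf1, Aen, Bid, Fas, Pidd1, Bbc3, Pmaip1, Trp63, Trp73 and Cdkn2a were named after their values were seen. One gene with a pattern like that of Cdkn1a is not reported here.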

Additional observations from a re-analysis of the deposited data

How the results depend on the processing

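Across other analyses of the members and of the called genes of the lists, 725 of 915 log2 fold changes kept their direction and their side of the threshold, 139 lost the call, 10 gained it and 41 changed sign, all 41 in genes that were not called. Low counts limited precision for Phlda3 and Eda2r. The cause of the changes below was not tested, except where libraries were left out or summed.

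Members called in ONC against Ctrl were 3 as reported, 1 with only the compared groups, 1 with columns 3 and 6 summed, 0 with column 5 alone, and 1 to 3 with a library left out. In CKO against ONC they were 0 as reported, 2 with DESeq2, limma-voom or no filter, and 0 to 3 with a library left out (3 without column 5). In CKO against Ctrl they were 1 as reported, 2 with DESeq2 and 1 to 1 with a library left out. All genes called in ONC against Ctrl were 4080, 1939 with columns 3 and 6 summed, 1165 with column 5 alone and 1783 to 7644 with a library left out. In CKO against ONC they were 137, 496 with library totals, 2261 with DESeq2, 603 with limma-voom, 790 with no filter, 361 with at least 1 CPM in 3 libraries, 2 with only the compared groups, 2 with columns 3 and 6 summed, 9 with column 5 alone and 2 to 6049 with a library left out. In CKO against Ctrl they were 1409, 2300 with DESeq2, 2976 with only the compared groups, 2889 with column 5 alone and 464 to 3524 with a library left out.

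With the replicate number as a block, CKO against Ctrl gave 2711 calls against 2976 without it in the same libraries, and Gadd45b as the 1 member called. Same-numbered libraries did not deviate together across genes (r = 0.002, 0.015 and 0.008). An effect shared by few genes would not show in these values, and the labels do not say whether the numbers pair samples. The numbers of the ONC columns are not tied to replicate numbers.

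Changes of sign were as follows. In ONC against Ctrl, the log2 fold change of Cdkn1a was 0.002 with library totals, 0.012 with no filter, 0.005 with only the compared groups, 0.118 with columns 3 and 6 summed, 0.358 with column 5 alone and -0.205 to 0.232 with a library left out; that of Trp53 was -0.024 to 0.271 and that of Mdm2 -0.034 to 0.115 with a library left out. In CKO against ONC, Cdkn1a was -0.067 with library totals, -0.108 with columns 3 and 6 summed, -0.344 with column 5 alone and -0.179 to 0.211 with a library left out, and Sesn1 was -0.017 with column 5 alone and -0.045 to 0.148. In CKO against Ctrl, Cdkn1a was 0.010 with median-ratio scaling and with DESeq2, 0.029 with no filter, 0.006 with only the compared groups, 0.009 with columns 3 and 6 summed, 0.014 with column 5 alone, 0.035 with the replicate block and -0.182 to 0.229 with a library left out; Ccng1 was -0.090 to 0.038 and Gadd45a -0.099 to 0.063.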
